A study of Mus musculus with 16 samples.

Results

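A set of 10 genes known for their induction by low oxygen, whose products are not enzymes of glycolysis, was followed through 5 genotypes of embryonic mouse heart: Bhlhe40, Ndrg1, Ddit4, Car9, Stc2, Bnip3, Mgarp, Cox4i2, Ankrd37 and P4ha1. Every probe annotated to 1 of them was taken from the table of non-normalised bead intensities. That gave 11 of 25696 probes, for 8 of the 10 genes and of the 10153 genes with an annotated probe, and all 11 passed the filter for low signal that kept 14058 probes. Bnip3 and Ankrd37 matched no annotated probe and were not analysed here. The genes were chosen on their high signal in KO, DKOhet and DKO hearts relative to control and hetDKO hearts, which was known from earlier results of these arrays. Differences between Rbpj-deleted and other hearts are therefore given for them as descriptions, without a test.

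Total RNA came from whole embryonic hearts at stage E9.25, with 22 to 24 somites and a C57/BL6;129Ola mixed background, and was read on 16 Illumina arrays. KO hearts were MesP1-cre:RBPJlox/lox (n = 3), DKOhet hearts added the loss of 1 Axin2 allele (MesP1-cre:RBPJlox/lox//Axin2+/-, n = 2), and DKO hearts lacked both (MesP1-cre:RBPJlox/lox//Axin2-/-, n = 4). The hetDKO hearts (MesP1-cre:RBPJlox/+//Axin2-/-, n = 3) carried the same Cre and the Axin2 null alleles but kept an intact Rbpj allele, and control hearts were wild type (n = 4). MesP1-cre is active in early mesoderm, from which heart muscle and endocardium derive, so cells of other origins in a heart would keep Rbpj, whereas Axin2+/- and Axin2-/- are written as whole-animal genotypes. RBPJ is the DNA-binding partner of the Notch receptors, and AXIN2 is a feedback inhibitor of Wnt signalling. No probe was annotated to Rbpj or Axin2, so the deletions were not checked on these arrays.

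When oxygen is plentiful, prolyl hydroxylases of the Egln family mark the alpha subunits of the hypoxia-inducible factors (HIFs) for destruction through the VHL protein. When oxygen is low the alpha subunits persist, pair with ARNT and bind DNA at hypoxia response elements, whose core reads ACGTG or GCGTG. The genes switched on in this way serve more than fuel supply: they act in transcription, growth control, pH balance, mitochondrial function, secretion and collagen folding, and the 8 measured genes cover these roles. At this stage the heart has no coronary circulation and is supplied from its own lumen.

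The arrays detected 12360 to 13196 of the 25696 probes each, and their median bead intensity lay between 171.0 and 211.6. Replicates 1 and 3 of KO, DKO, hetDKO and control were on beadchip 1, and all other arrays, both of DKOhet included, were on beadchip 2. KO replicate 2 stood apart from the other 15 arrays on the third principal component. Of 10 cardiomyocyte markers 9 were measured, and all 9 were detected on every array. The labels do not say that arrays are separate embryos, so the spread behind the p-values is that between these samples and may be technical.

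Upstream windows from RefSeq (build GRCm38.p6), from 250 bases before to 50 bases after an annotated start site, matched 7 of the 10 genes. The 5 of them with a probe are shown because they are the control regions of genes whose signal was high together in the same hearts. They lie at chr4:43506776-43507075 on the plus strand for Car9, at chr10:59951721-59952020 on the minus strand for Ddit4, at chr10:59323046-59323345 on the plus strand for P4ha1, at chr3:51396498-51396797 on the minus strand for Mgarp and at chr11:31370012-31370311 on the minus strand for Stc2. Each is written 5′ to 3′ on the strand of its gene, and capitals mark ACGTG or GCGTG on either strand, so that CACGT and CACGC are the same letters read on the other strand.
Car9: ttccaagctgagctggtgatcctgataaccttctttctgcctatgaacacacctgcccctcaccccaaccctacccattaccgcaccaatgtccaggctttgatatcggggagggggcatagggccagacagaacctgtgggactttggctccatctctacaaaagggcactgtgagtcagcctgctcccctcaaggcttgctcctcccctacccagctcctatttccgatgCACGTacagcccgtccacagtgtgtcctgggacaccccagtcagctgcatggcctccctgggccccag
Ddit4: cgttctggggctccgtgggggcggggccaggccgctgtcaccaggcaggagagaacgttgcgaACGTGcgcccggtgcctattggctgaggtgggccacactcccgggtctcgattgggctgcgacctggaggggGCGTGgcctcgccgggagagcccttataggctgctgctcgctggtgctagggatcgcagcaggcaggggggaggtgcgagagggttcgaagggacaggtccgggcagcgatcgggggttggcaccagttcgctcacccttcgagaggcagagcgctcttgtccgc
P4ha1: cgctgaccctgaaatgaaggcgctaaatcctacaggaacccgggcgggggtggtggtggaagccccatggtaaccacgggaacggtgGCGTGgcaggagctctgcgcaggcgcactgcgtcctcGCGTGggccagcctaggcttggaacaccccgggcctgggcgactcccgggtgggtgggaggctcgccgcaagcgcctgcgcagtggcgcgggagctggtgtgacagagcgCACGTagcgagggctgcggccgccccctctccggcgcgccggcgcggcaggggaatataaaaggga
Mgarp: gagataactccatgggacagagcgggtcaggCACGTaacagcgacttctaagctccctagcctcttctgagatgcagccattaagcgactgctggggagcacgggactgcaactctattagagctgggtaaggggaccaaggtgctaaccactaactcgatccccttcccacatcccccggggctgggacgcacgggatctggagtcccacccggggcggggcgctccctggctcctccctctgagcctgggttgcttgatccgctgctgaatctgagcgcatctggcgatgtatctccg
Stc2: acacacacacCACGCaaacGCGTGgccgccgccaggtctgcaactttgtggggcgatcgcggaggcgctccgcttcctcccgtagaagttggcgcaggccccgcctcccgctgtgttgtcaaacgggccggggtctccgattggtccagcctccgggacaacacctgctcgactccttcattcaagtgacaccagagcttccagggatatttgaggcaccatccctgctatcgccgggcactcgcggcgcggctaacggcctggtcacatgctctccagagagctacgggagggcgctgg

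ACGTG stood in 4 of these 5 windows and GCGTG in 3 of 5, against 19.6% and 32.4% of the 32851 windows of the table. Positions count from the start site on which each window was placed. The Car9 motif began 18 bases upstream of that site and the P4ha1 ACGTG 16 bases upstream, both on the minus strand. For P4ha1 that site lies downstream of the gene start at 59323197 given below, so its ACGTG falls inside the gene as given there. Ddit4 had ACGTG at −187 and GCGTG at −115, P4ha1 had GCGTG at −163 and at −126, and Mgarp had ACGTG at −219. The Stc2 window held GCGTG at −240 and −231 and no ACGTG. Windows of Bnip3 and Ankrd37 held both motifs, which makes 6 of 7 with ACGTG and 5 of 7 with GCGTG. The E-box CACGTG, which contains ACGTG, was in 1 of the 7 windows (Bnip3) and in 7.15% of all windows. TGGGAA, the core of the RBPJ site, was in 1 of the 7 (Mgarp, at −85 on the minus strand) and in 25.6% of all. The 5 printed windows were 58.3% to 70.3% G and C, against a median of 52.7% over all windows, so motifs that contain CG are not equally likely in both sets. A match describes the letters of a window and not a bound site.

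All 8 genes had higher signal on every array of KO, DKOhet and DKO hearts than on any control array. Group separation of this kind was found in KO for 9.61% of the 14058 kept probes, in DKOhet for 14.5% and in DKO for 9.30%. Values are log2 signal, on which 1 unit is a doubling, after background correction and normalisation. The median difference over the 8 genes was 2.59 in KO (1.46 to 3.22), 2.68 in DKOhet (1.99 to 3.24) and 2.56 in DKO (1.62 to 3.23), each against control, where the medians over all kept probes were −0.019, −0.02 and −0.016. With Car9 set to the lower bound described below, the medians were 2.57, 2.68 and 2.39. In whole hearts a change in the number of cells of a type and a change in RNA per cell cannot be told apart.

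**Figure D1:**
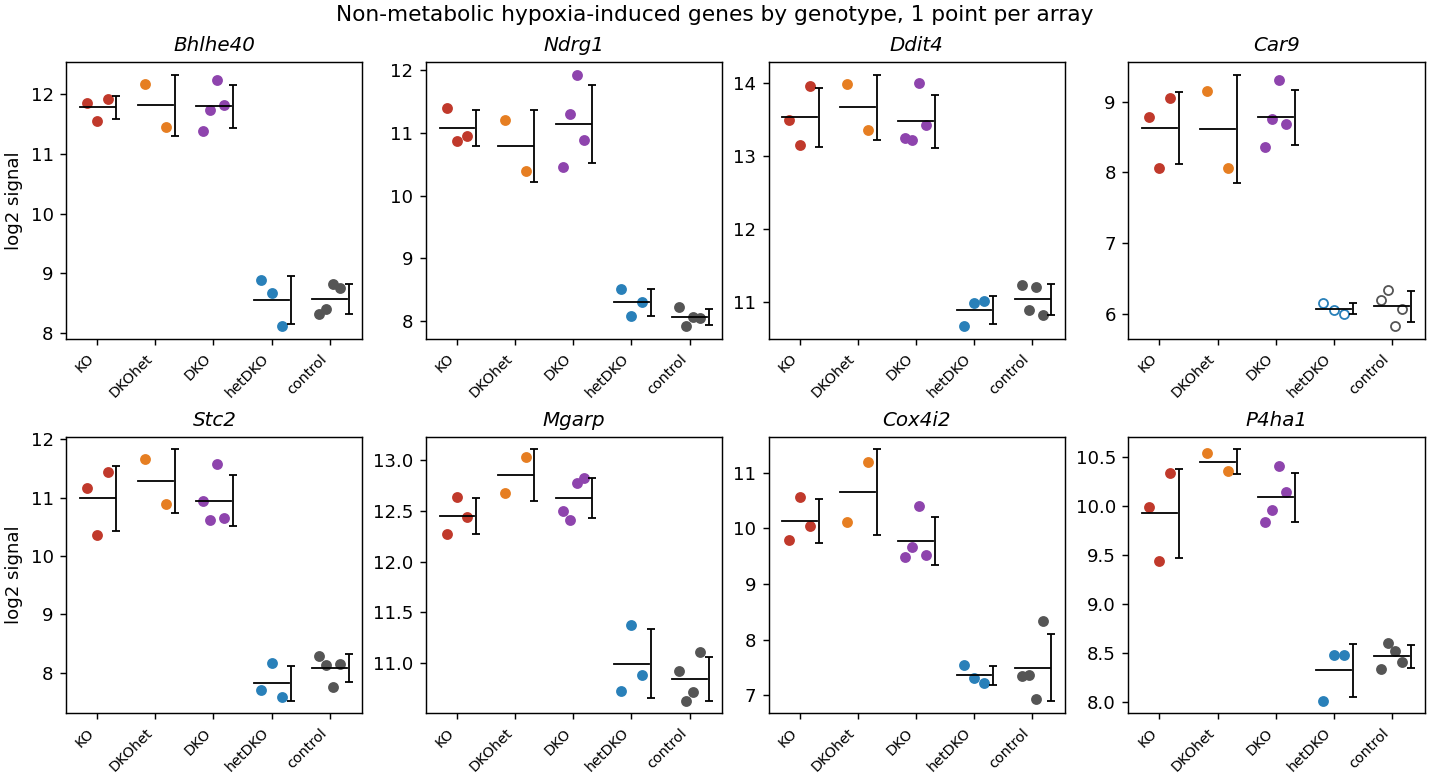
Log2 signal of the lead probe of each gene on every array, with genotypes on the horizontal axis. Points are arrays (open where the probe was not detected), the line is the group mean and the bar beside it the SD. All 9 arrays of KO, DKOhet and DKO lie above all 7 of hetDKO and control in each of the 8 panels.

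Bhlhe40 (chr6:108660629-108666925) encodes a basic helix-loop-helix repressor of transcription, also known for its part in the circadian clock. Its log2 signal was 11.86, 11.56 and 11.93 in KO hearts, 12.18 and 11.45 in DKOhet hearts and 11.38, 11.74, 12.24 and 11.83 in DKO hearts. In hetDKO hearts it was 8.88, 8.66 and 8.11, and in control hearts 8.31, 8.40, 8.82 and 8.75. The lowest Rbpj-deleted array, DKO replicate 1, lay 2.50 above the highest of the other 7 arrays. Relative to control, the difference was 3.22 ± 0.24 in KO, 3.24 ± 0.27 in DKOhet and 3.23 ± 0.22 in DKO (SE), which are 9.29-fold, 9.48-fold and 9.36-fold. On the linear scale before any correction, bead intensity was 3116.1 to 3565.4 in KO and 2721.8 to 5253.0 in DKO, against 418.5 to 603.6 in control.

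Ddit4 (chr10:59949675-59951770), also called Redd1, encodes an inhibitor of the growth kinase complex mTORC1. It read 13.50, 13.15 and 13.96 in KO, 13.99 and 13.36 in DKOhet and 13.25, 13.23, 14.01 and 13.43 in DKO hearts. The hetDKO arrays read 10.67, 10.99 and 11.01 and the control arrays 11.23, 10.89, 11.21 and 10.82. The lowest Rbpj-deleted array, KO replicate 2, was 1.92 above the highest of the others, control replicate 1. Differences from control were 2.50 ± 0.23 (5.65-fold) in KO, 2.64 ± 0.26 (6.23-fold) in DKOhet and 2.44 ± 0.21 (5.43-fold) in DKO.

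Ndrg1 (chr15:66929318-66969641), a cytoplasmic protein induced by low oxygen and by differentiation, was measured by 2 probes. The probe with the higher mean signal gave 11.40, 10.88 and 10.95 in KO, 11.20 and 10.39 in DKOhet and 10.46, 11.30, 11.93 and 10.89 in DKO, against 8.52, 8.08 and 8.30 in hetDKO and 8.23, 7.92, 8.06 and 8.05 in control. The second probe gave 11.12, 10.48 and 10.97 in KO, 10.70 and 10.58 in DKOhet and 10.47, 11.12, 11.91 and 10.54 in DKO, against 8.41, 8.15 and 8.13 in hetDKO and 8.52, 7.87, 8.27 and 7.98 in control. Both probes separated the same arrays, and on both the highest array was DKO replicate 3. Relative to control the first probe differed by 3.01 ± 0.28 in KO, 2.73 ± 0.32 in DKOhet and 3.08 ± 0.26 in DKO, and the second by 2.69 ± 0.29, 2.48 ± 0.32 and 2.85 ± 0.26.

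Stc2 (chr11:31359441-31370061) encodes stanniocalcin 2, a secreted glycoprotein. Its signal was 11.16, 10.36 and 11.44 in KO, 11.67 and 10.90 in DKOhet and 10.95, 10.62, 11.57 and 10.65 in DKO hearts. In hetDKO it was 7.71, 8.16 and 7.59, and in control 8.29, 8.14, 7.75 and 8.15. The groups lay 2.07 apart at their nearest arrays. Differences from control came to 2.90 ± 0.28 (7.48-fold) in KO, 3.20 ± 0.32 (9.21-fold) in DKOhet and 2.86 ± 0.26 (7.27-fold) in DKO.

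Car9 (chr4:43507026-43513729) encodes a carbonic anhydrase of the cell surface that helps cells to control their pH, and is widely used as a marker of hypoxia. Its first probe read 8.78, 8.07 and 9.06 in KO, 9.16 and 8.07 in DKOhet and 8.36, 8.76, 9.31 and 8.69 in DKO hearts, and was detected on all 9 of these arrays. It read 6.15, 6.05 and 6.0 in hetDKO and 6.19, 6.34, 5.82 and 6.06 in control hearts, and was not above background on any of these 7 arrays. Those low values are therefore bounds. Measured against the dimmest signal that counted as detected on each array, Car9 was at least 4.55-fold higher in KO, at least 4.46-fold higher in DKOhet and at least 5.01-fold higher in DKO than in control.

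The 3 Car9 probes did not report equal differences. The second probe was detected on 7 arrays, all Rbpj-deleted, and gave bounds of at least 1.38-fold in KO, 1.98-fold in DKOhet and 1.54-fold in DKO. The third was detected on 2 arrays, 1 of DKOhet and 1 of DKO, with 145.8 to 170.9 units of bead intensity in KO, 165.2 to 225.5 in DKOhet and 164.3 to 190.4 in DKO, against 107.0 to 136.5 in hetDKO and 118.7 to 130.2 in control. All 3 probes passed the filter only through Rbpj-deleted arrays, whereas the other 8 probes were detected on all 16 arrays.

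**Figure D2:**
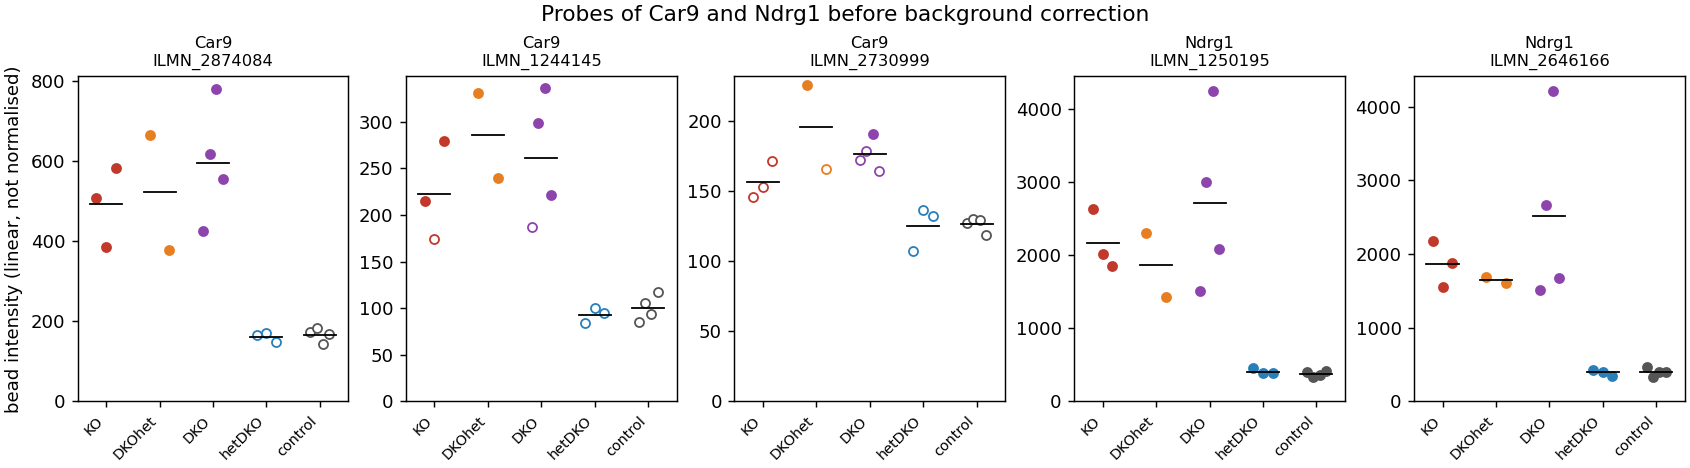
Bead intensity on a linear scale before background correction for the 3 probes of Car9 and the 2 of Ndrg1, 1 point per array, open where not detected, with a line at the group mean. The third Car9 probe reads at most 225.5 units on any array, while both Ndrg1 probes read at least 1435.5 units on all Rbpj-deleted arrays.

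Mgarp (chr3:51388412-51396547) encodes a mitochondrial outer membrane protein linked to mitochondrial transport under low oxygen. It read 12.27, 12.63 and 12.44 in KO, 12.67 and 13.03 in DKOhet and 12.50, 12.41, 12.77 and 12.82 in DKO hearts, against 10.73, 11.38 and 10.88 in hetDKO and 10.92, 10.63, 10.72 and 11.11 in control. The nearest arrays, KO replicate 1 and hetDKO replicate 2, were 0.89 apart. Differences from control were 1.60 ± 0.18 (3.03-fold) in KO, 2.0 ± 0.20 (4.0-fold) in DKOhet and 1.78 ± 0.16 (3.44-fold) in DKO.

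Cox4i2 (chr2:152753916-152765039) encodes the alternative form of subunit 4 of cytochrome c oxidase, which replaces the common form, Cox4i1, in some oxygen-sensing tissues. Its signal was 9.80, 10.57 and 10.05 in KO, 10.11 and 11.20 in DKOhet and 9.48, 9.67, 10.40 and 9.53 in DKO hearts. It was 7.55, 7.30 and 7.22 in hetDKO and 7.35, 7.36, 6.93 and 8.34 in control hearts. Control replicate 4 was the highest of the 7 arrays and lay 1.14 below the lowest Rbpj-deleted array. Relative to control, Cox4i2 differed by 2.65 ± 0.33 (6.26-fold) in KO, 3.16 ± 0.38 (8.97-fold) in DKOhet and 2.28 ± 0.31 (4.85-fold) in DKO. Cox4i1 differed from control by 0.15 ± 0.11 in KO, 0.11 ± 0.12 in DKOhet and 0.08 ± 0.10 in DKO, with adjusted p of 0.411, 0.602 and 0.657 in limma's test.

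P4ha1 (chr10:59323197-59373304) encodes a catalytic subunit of prolyl 4-hydroxylase, which stabilises the collagen helix. It read 9.99, 9.44 and 10.34 in KO, 10.54 and 10.36 in DKOhet and 9.84, 9.96, 10.41 and 10.14 in DKO hearts, against 8.01, 8.48 and 8.48 in hetDKO and 8.33, 8.60, 8.52 and 8.41 in control. Its gap between the nearest arrays, 0.84, was the narrowest of the 8 genes. The differences from control were 1.46 ± 0.20 (2.75-fold) in KO, 1.99 ± 0.22 (3.96-fold) in DKOhet and 1.62 ± 0.18 (3.07-fold) in DKO. Within beadchip 2, where KO has 1 array, the KO difference was 0.93, and within beadchip 1 it was 1.74.

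Against hetDKO hearts, which share their Axin2 genotype and Cre, DKO hearts also had all 8 genes higher on every array, as had 12.8% of kept probes. The median difference was 2.65 (1.63 for Mgarp to 3.25 for Bhlhe40), or 2.50 with Car9 at its bound of at least 4.65-fold, against −0.015 over all kept probes. All 8 differences stayed above 0 within each beadchip, the lowest being 0.93 (P4ha1 in KO within beadchip 2). The median over the 8 genes in KO against control was 2.85 within beadchip 1 and 2.26 within beadchip 2. For DKO against control it was 2.81 and 2.48, and for DKO against hetDKO 2.77 and 2.41. DKOhet arrays were on beadchip 2 alone, where the median was 2.81. Without KO replicate 2 the KO median was 2.75.

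In hetDKO against control, which asks what loss of Axin2 does with Cre and 1 deleted Rbpj allele while the other Rbpj allele is kept, the low signal of both groups was part of what the genes were chosen on. Their values here are therefore a description, without a test. Car9 stayed at background in both groups, so no difference can be given for it. For the other 7 genes the differences ran from −0.27 ± 0.28 for Stc2 to 0.24 ± 0.28 for Ndrg1, 2 above 0 and 5 below, with a median of −0.14 against 0.001 over all kept probes. Their 95% intervals lay between −0.88 and 0.83. The arrays of hetDKO and control overlapped for all 7, while 2.53% of kept probes lay wholly above and 2.74% wholly below.

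**Figure D3:**
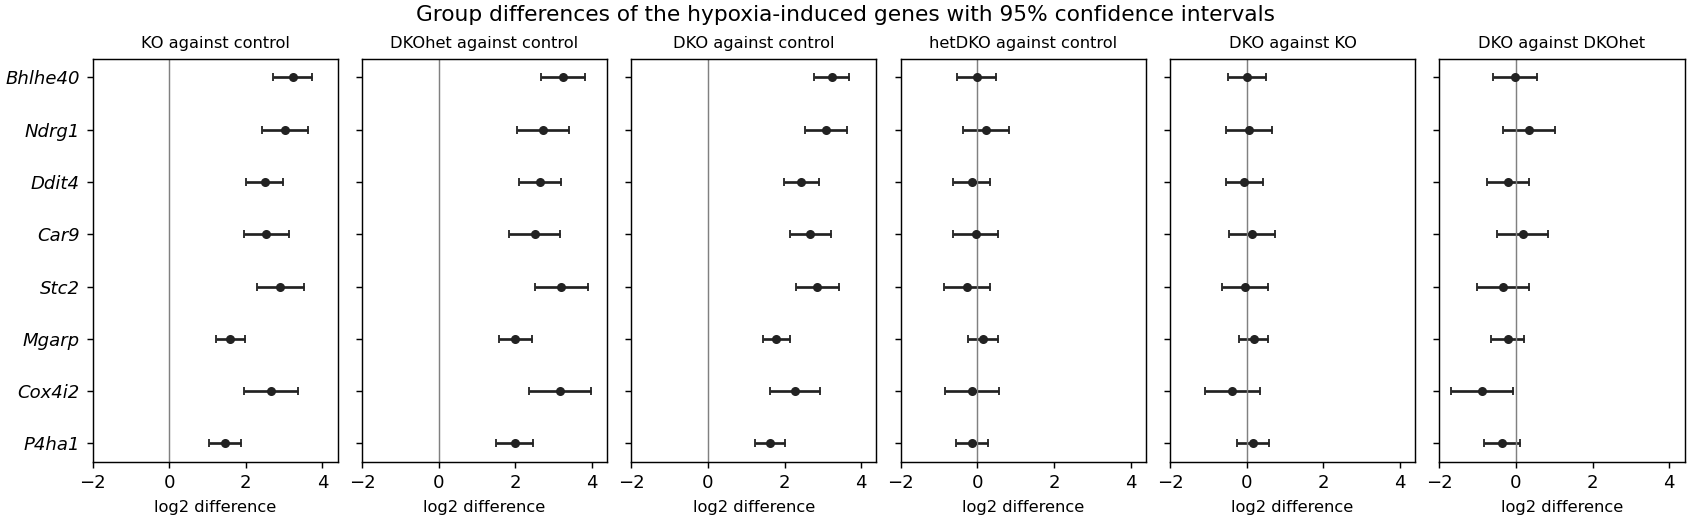
Log2 differences between group means of the 8 lead probes with 95% confidence intervals from limma, 1 panel per comparison. The 3 comparisons of Rbpj-deleted with control hearts lie between 1.46 and 3.24, and the other 3 lie between −0.89 and 0.35. Car9 is drawn at its measured values, although it was not above background in hetDKO or control. Its points in comparisons with control are therefore not sizes of a difference.

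A further comparison asked whether the number of lost Axin2 alleles altered the genes in hearts that already lacked Rbpj. With 0, 1 and 2 Axin2 alleles lost, in KO, DKOhet and DKO hearts, Bhlhe40 averaged 11.79 ± 0.20, 11.81 ± 0.51 and 11.80 ± 0.35 (SD, n = 3, 2 and 4). Ddit4 averaged 13.54 ± 0.40, 13.68 ± 0.44 and 13.48 ± 0.36, and Stc2 10.99 ± 0.56, 11.29 ± 0.55 and 10.95 ± 0.44, in the same order. Cox4i2 had the widest spread of means, with 10.14 ± 0.39, 10.66 ± 0.77 and 9.77 ± 0.43. For each of these 4 genes the arrays of the 3 genotypes overlapped. Mgarp averaged 12.45 ± 0.18, 12.85 ± 0.25 and 12.63 ± 0.20, and P4ha1 9.92 ± 0.46, 10.45 ± 0.12 and 10.09 ± 0.25. Both DKOhet arrays lay above all 3 KO arrays for 2 of the 8 genes, Mgarp and P4ha1, and below them for 0, where 8.77% of kept probes lay wholly above and 9.17% wholly below. The difference between DKOhet and KO was not tested. Both DKOhet arrays were on beadchip 2, as were 1 KO array and 2 DKO arrays. Genotype and beadchip can thus not be fully told apart where DKOhet is compared with KO or DKO.

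In DKO against KO, 0 of the 8 genes passed the test, as did 0.0142% of kept probes, and the lowest adjusted p of the 8 was 0.992. Differences ran from −0.37 ± 0.33 (Cox4i2) to 0.18 ± 0.18 (Mgarp) with a median of 0.04, against 0.009 over all probes, and the 95% intervals lay between −1.08 and 0.73. At an unadjusted p under 0.05 there were 0 of 8 genes and 5.02% of probes. Without KO replicate 2 the difference turned from above to below 0 for Bhlhe40 (−0.10), Ndrg1 (−0.03), Car9 (−0.14) and P4ha1 (−0.08), and none passed. The arrays of the 2 groups overlapped for all 8 genes, while 2.41% of kept probes lay wholly above and 2.48% wholly below.

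In DKO against DKOhet, again 0 of 8 genes and 0.00% of kept probes passed. Cox4i2 differed most, by −0.89 ± 0.38 (95% interval −1.69 to −0.08), with an unadjusted limma p of 0.0328 and an adjusted p of 1.0. It was the 1 gene of 8 with an unadjusted p under 0.05, beside 3.92% of kept probes, and its arrays overlapped, since DKOhet replicate 1 at 10.11 lay below DKO replicate 3 at 10.40. No gene had its DKO arrays wholly above its DKOhet arrays (6.48% of kept probes) or wholly below (5.31%). The median difference was −0.21, against 0.005 over all probes, and the intervals reached from −1.69 to 1.03. A p above the threshold does not show that the Axin2 genotypes act alike, and the intervals above give the sizes of difference that these arrays leave possible.

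The genes varied between arrays of Rbpj-deleted hearts, and their highest and lowest arrays were not the same. On the lead probes, DKO replicate 3 was the highest of the 9 arrays for Bhlhe40, Ndrg1, Ddit4 and Car9. DKOhet replicate 1 was the highest for Stc2 and P4ha1, and DKOhet replicate 2 for Mgarp and Cox4i2. DKOhet replicate 2 was at the same time the lowest array for Ndrg1 and, level with KO replicate 2 at 8.07, for Car9, and KO replicate 2 was the lowest for Ddit4, Stc2 and P4ha1. On the second Ndrg1 probe the lowest was DKO replicate 1 (10.47). On the other Car9 probes DKOhet replicate 1 was the highest and KO replicate 2 the lowest. Averaged over the 8 genes, each relative to its control mean, the signal was 2.51, 2.25 and 2.69 in KO, 2.86 and 2.51 in DKOhet and 2.19, 2.38, 3.0 and 2.41 in DKO hearts, against −0.06, 0.05 and −0.14 in hetDKO and 0.02, −0.05, −0.10 and 0.13 in control.

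**Figure D4:**
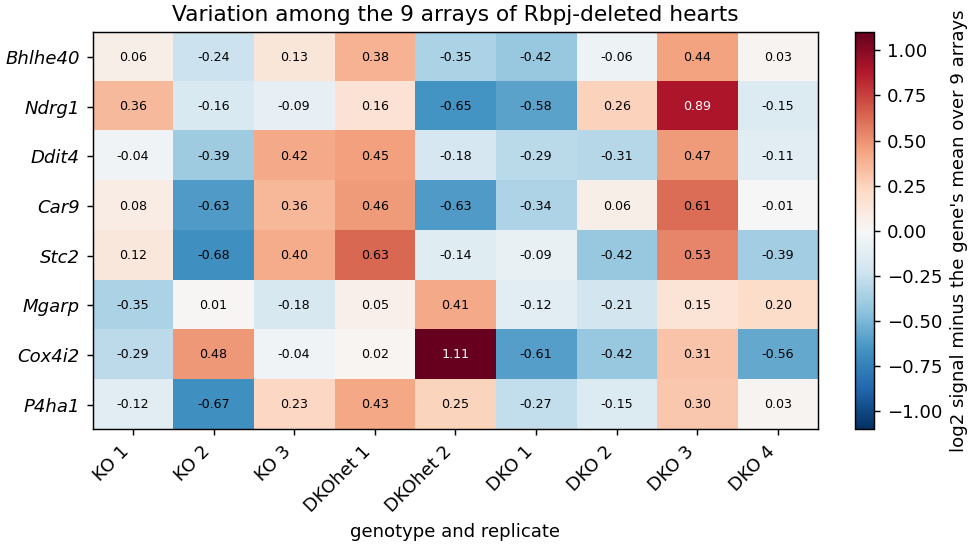
Log2 signal of the lead probe of each gene (rows) on each of the 9 arrays of Rbpj-deleted hearts (columns), minus its mean over the 9 arrays, red where higher and blue where lower. Bhlhe40, Ndrg1, Ddit4 and Car9 are highest in DKO replicate 3, and Mgarp and Cox4i2 in DKOhet replicate 2.

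Over these 9 arrays, which come from 3 genotypes, all 28 pairs of the genes were correlated, and 21 were positive, with r between −0.32 and 0.93 and a median of 0.50. Over all pairs of the 14058 kept probes the median was 0.00, and 50.1% of pairs were positive. Of the 28 pairs of the genes, 9 passed an exact permutation test of Pearson's r at a Benjamini-Hochberg adjusted p under 0.05 over the 28. These 9 had r of 0.77 to 0.93, and 6 of them also passed by Spearman's rho. The share of all probe pairs that reach such an r was not computed. Bhlhe40 and Car9 gave r = 0.93 and rho = 0.93 (exact permutation p = 0.00084, adjusted 0.0118, two-sided), and Ddit4 and Stc2 gave r = 0.93 and rho = 0.92 (exact permutation p = 0.000705, adjusted 0.0118). Without the 2 arrays farthest from the median of the first gene, the 9 pairs had r of 0.53 to 0.94. Without KO replicate 2 they had r of 0.69 to 0.95 over 8 arrays. The beadchips hold 4 and 5 of these arrays, too few for a value within each.

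All 9 pairs that passed lay among the 6 genes Bhlhe40, Ndrg1, Ddit4, Car9, Stc2 and P4ha1, whose 15 pairs were all positive (r of 0.24 to 0.93, median 0.78). The 12 pairs that join the mitochondrial genes Mgarp or Cox4i2 to 1 of those 6 had r of −0.32 to 0.35, with a median of −0.06, and none passed. Leaving out the 2 arrays farthest from the median of the first gene gave r of 0.23 to 0.94 for the 15 pairs and −0.60 to 0.96 for the 12. The highest of the 12 was Car9 with Cox4i2, at 0.96 without those arrays and −0.32 with them, so its low value rests on 2 arrays. Mgarp and Cox4i2 themselves gave r = 0.62 and rho = 0.43 (exact permutation p = 0.0717 for r). This division into 6 and 2 genes was drawn after the values were seen and has no test of its own.

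Close relatives of the genes, encoded by the same families, give a comparison within each protein family. Of 19 relatives listed, 15 were measured, and in KO against control 3 passed as higher and 1 as lower, where 3.61% of kept probes were higher and 3.97% lower. P4ha2, the other catalytic subunit beside P4ha1, rose by 1.86 ± 0.25 in KO (3.62-fold, adjusted p = 0.000663 in limma), by 2.17 ± 0.28 in DKOhet and by 2.03 ± 0.23 in DKO. P4hb, the shared partner subunit, differed by 0.32 ± 0.12 in KO (adjusted p = 0.13) and 0.32 ± 0.14 in DKOhet (adjusted p = 0.169), and rose by 0.43 ± 0.12 in DKO (adjusted p = 0.0273). Bnip3l, the relative of the unmeasured Bnip3 and like it a receptor for the removal of mitochondria, rose by 0.78 ± 0.10 in KO, 0.79 ± 0.12 in DKOhet and 0.76 ± 0.10 in DKO (adjusted p = 0.00069, 0.00185 and 0.000333).

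Ndrg2 rose by 0.95 ± 0.17 in KO, 1.16 ± 0.19 in DKOhet and 0.85 ± 0.15 in DKO (adjusted p = 0.00416, 0.00277 and 0.00311), a smaller log2 difference than either Ndrg1 probe. Ndrg3 and Ndrg4 differed by 0.30 ± 0.13 and 0.24 ± 0.32 in KO, and neither passed (adjusted p = 0.167 and 0.694). Ddit4l, the paralogue of Ddit4, differed by −0.27 ± 0.18 in KO (adjusted p = 0.393). Among the other carbonic anhydrases, Car2, Car4, Car7, Car12, Car13 and Car14 did not pass in KO, with differences from −1.0 ± 1.2 (Car13) to 0.96 ± 0.42 (Car12). Car3 passed as lower in KO (adjusted p = 0.0226) and in DKO (adjusted p = 0.0452). It was not above background on any KO array and on 3 of 4 control arrays it was, so that it was at least 1.23-fold lower in KO. In DKOhet against control 3 relatives passed as higher (4.30% of kept probes did) and 0 as lower (4.32%), and in DKO 4 as higher (6.68%) and 1 as lower (6.51%). None passed in hetDKO against control.

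Other genes of the response to low oxygen came from 4 lists chosen for their known roles, 54 of whose 64 genes were measured. In KO against control 25 of the 54 rose (46.3%, against 3.61% of kept probes) and 0 fell. In DKOhet 24 rose (44.4%, against 4.30%) and in DKO 25 (46.3%, against 6.68%), and again 0 fell. In hetDKO 0 of 54 passed in either direction, as did none of the kept probes (0.00%, and 3.88% at an unadjusted p under 0.05). Its median difference over the 54 was −0.10, where the medians in KO, DKOhet and DKO were 0.50, 0.48 and 0.50. In DKO against hetDKO 24 rose, against 4.08% of kept probes, and 0 fell, against 3.78%. Of all 1105 probes called in that comparison 573 were higher, and with median scaling 444 of 1096 were. The lists were assembled with earlier results of these arrays known, so their counts are not independent evidence of a direction.

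Among HIF subunits and oxygen sensors (10 of 11 measured), 3 passed as higher in KO, 2 in DKOhet and 2 in DKO. Egln3, a prolyl hydroxylase that is itself a HIF target, rose by 2.32 ± 0.15 in KO (4.99-fold, adjusted p = 3.64e-06), 2.41 ± 0.17 in DKOhet and 2.11 ± 0.14 in DKO. Egln1 rose by 1.32 ± 0.18 in KO (2.50-fold, adjusted p = 0.000797), 1.62 ± 0.20 in DKOhet and 1.29 ± 0.17 in DKO. Vhl passed in KO (0.48 ± 0.13, adjusted p = 0.0391) and differed by 0.45 ± 0.15 in DKOhet and 0.35 ± 0.12 in DKO (adjusted p = 0.0753 and 0.0722). In hetDKO, where an Rbpj allele is kept, Vhl differed from control by a similar 0.43 ± 0.13 (adjusted p = 0.998 in limma). Its difference was thus not particular to Rbpj-deleted hearts. The transcript of Hif1a, whose protein is controlled mainly by its stability, differed by −0.70 ± 0.24 in KO, −0.51 ± 0.27 in DKOhet and −0.54 ± 0.22 in DKO and did not pass (adjusted p = 0.0865, 0.259 and 0.119).

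Of the secreted and vascular targets (9 of 13 measured), 2 passed as higher in KO, in DKOhet and in DKO. Vegfa, the chief growth factor of blood vessels, rose by 1.61 ± 0.21 in KO (3.06-fold, adjusted p = 0.000512), 2.0 ± 0.24 in DKOhet and 1.81 ± 0.19 in DKO. Adm, the peptide adrenomedullin, rose by 2.67 ± 0.35 in KO (6.38-fold, adjusted p = 0.000621), 2.80 ± 0.40 in DKOhet and 2.46 ± 0.33 in DKO, and was detected on 12 of 16 arrays, with 2 of 4 in control. Pgf and Igfbp3 differed by 0.59 ± 0.24 and 0.52 ± 0.24 in KO without passing (adjusted p = 0.145 and 0.19).

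Glycolytic targets (18 of 20 measured) passed as higher for 9 genes in KO, 9 in DKOhet and 10 in DKO. Their median difference was 0.56 in KO, 0.53 in DKOhet and 0.54 in DKO. Aldoc, an aldolase, rose by 1.86 ± 0.17 in KO, 1.97 ± 0.20 in DKOhet and 1.85 ± 0.16 in DKO (adjusted p = 2.96e-05 in KO). Pdk1, which keeps pyruvate out of the mitochondrial cycle, rose by 1.17 ± 0.13 in KO (adjusted p = 0.000117), and Hk2 and Aldoa rose by 0.99 ± 0.14 and 0.83 ± 0.12 (adjusted p = 0.00134 for both).

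In the list of other non-glycolytic targets (17 of 20 measured), 11 rose in KO, 11 in DKOhet and 11 in DKO. Rora, a nuclear receptor, rose by 2.16 ± 0.26 in KO (4.46-fold, adjusted p = 0.000253), 2.71 ± 0.29 in DKOhet and 2.33 ± 0.24 in DKO, and was detected on 3 of 4 control arrays. Mxi1, an antagonist of Myc, rose by 1.39 ± 0.17 in KO (2.61-fold, adjusted p = 0.00036). P4ha2 and Bnip3l, given above and counted in both lists, were the other 2 of the 4 with the smallest p in KO.

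These counts differed between subsets of the arrays. Within beadchip 1, 20 of 54 genes were called in KO and 21 in DKO. Within beadchip 2, where KO has 1 array, the counts were 3 in KO, 4 in DKOhet and 2 in DKO. With the beadchip as a block they were 26, 24 and 26, of which 26, 24 and 25 were higher. Without DKOhet replicate 1 the DKOhet count was 15, and without KO replicate 2 the KO count was 20.

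**Figure D5:**
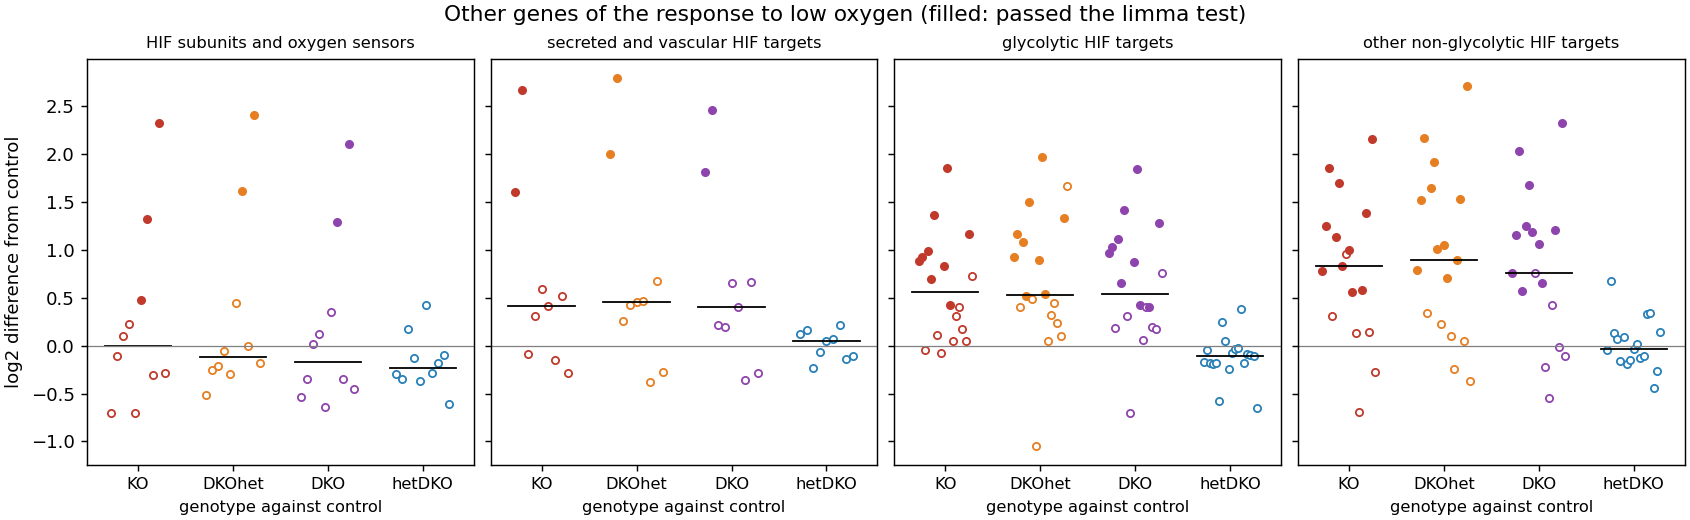
Log2 difference from control of each measured gene of 4 lists of hypoxia-response genes, in KO, DKOhet, DKO and hetDKO hearts. Filled points passed limma's test, open points did not, and lines are medians. The KO, DKOhet and DKO columns hold 25, 24 and 25 filled points in all, and the hetDKO columns hold 0.

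Over all 16 arrays, 9689 genes outside the 10 were ranked by how closely their log2 signal, relative to their own control mean, followed the average of the 8 genes, as the root mean square difference. The nearest were Ier3, an immediate early gene (0.25), Egln3 (0.25), Rora (0.32), Vldlr, a lipoprotein receptor (0.35), and Adm (0.40). Measured in the same way against the average of the other 7, the genes themselves lay between 0.20 (Ddit4) and 0.79 (P4ha1), so that Ddit4 and Car9 (0.26) followed the average about as closely as Ier3. In KO, DKOhet and DKO, Ier3 differed from control by 2.62, 3.08 and 2.76, and in hetDKO by −0.04. The ranking uses the contrasts on which the 10 genes were chosen and is a description.

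Marker genes of other cell types moved with some of these groups. The mean log2 signal of the epicardial markers (6 of 6 measured) was 9.13 to 9.66 in KO, 9.86 to 9.90 in DKOhet and 8.87 to 10.02 in DKO, against 8.90 to 9.17 in hetDKO and 8.31 to 8.75 in control. Wt1 and Krt19 passed as higher in KO, by 1.25 ± 0.34 and 1.93 ± 0.21 (adjusted p = 0.0414 and 0.000112 in limma). Upk3b, Tcf21 and Aldh1a2 differed by 1.21 ± 0.56, 0.33 ± 0.23 and 0.27 ± 0.28 in KO (adjusted p = 0.196, 0.404 and 0.588). They did not pass in KO, nor did Tbx18. In DKOhet 3 of the 6 passed as higher (Wt1, Krt19 and Tbx18), beside 4.30% of kept probes. In DKO 2 did (Wt1 and Krt19), beside 6.68%, and in hetDKO 0. Tbx18 was at least 2.16-fold higher in DKOhet than in control. Tbx18 was above background on 2 of 3 KO, 2 of 2 DKOhet, 2 of 4 DKO, 2 of 3 hetDKO and 0 of 4 control arrays. Neural markers (5 of 8 measured) averaged 7.51 to 7.65 in KO, 7.56 to 7.84 in DKOhet and 7.25 to 7.92 in DKO, against 7.86 to 8.32 in hetDKO and 7.88 to 8.48 in control. Of these 5 only Dbx1 passed in KO, as lower, by −2.69 ± 0.36 (adjusted p = 0.000637), and the other 4 ran from −0.55 ± 0.18 for Nes (adjusted p = 0.0859) to 0.39 ± 0.38 for Sox2 (adjusted p = 0.573). Dbx1 was above background on 1 of 3 KO, 1 of 2 DKOhet and 1 of 4 DKO arrays, and on all hetDKO and control arrays. Its low values are thus mostly at background. Tubb3 and Elavl3 were above background on 3 of 16 arrays each, so the neural means rest partly on background signal. Array means of the cardiomyocyte, erythroid (9 of 10) and endoderm (5 of 8) markers in each Rbpj-deleted genotype overlapped with those in hetDKO and in control. Endothelial means (6 of 8) overlapped in KO and DKO. In DKOhet they were 10.09 to 10.38, wholly above 9.56 to 10.04 in hetDKO and 9.76 to 10.06 in control. No endothelial marker passed in DKOhet against control. Erythroid means were 12.51 to 13.82 in KO, 11.87 to 12.57 in DKOhet and 11.74 to 12.90 in DKO, against 12.32 to 13.22 in hetDKO and 12.18 to 13.44 in control. The part of these markers in the signal of the hypoxia-induced genes was not tested.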

How the data were processed

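The deposited table of non-normalised values holds average bead intensity on a linear scale and for every probe on every array a detection p-value, per the file headers; 2 rows without a probe were dropped. The submitters' processing notes name BeadStudio, without a version. The authors' deposited value table (14788 probes, intensity, array medians of 594.4 to 594.5, each following its own array with r of at least 0.9998) served as an alternative; the sources used here do not say how the authors normalised it. Probe names came from the platform annotation (13928 probes, 0 with several symbols), which named 13238 of the 14058 kept probes.

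From these values, limma 3.58.1 (R 4.3.3) removed background with nec (offset 16), normalised by quantiles and fitted 1 mean per group over all 16 arrays with eBayes (11 residual and 3.52 prior degrees of freedom). Kept were probes detected at p under 0.05 on 2 or more arrays (11638 were removed). Benjamini-Hochberg adjustment ran over all kept probes, and calls are adjusted p under 0.05. A gene's lead probe is its kept probe with the highest mean signal. The offset shrinks the folds of dim probes. No 2 arrays were duplicates (highest correlation 0.9932). Array number limits the precision. Alternatives were other background, offset, normalisation and filter settings, the value table, beadchip and replicate blocks, single beadchips and leaving out each array.

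The 10 genes and all lists were chosen with earlier results of these data known. Tests of the members in hetDKO against control and of the interaction of Rbpj with Axin2 were planned and are not reported, because both use groups on which the genes were chosen. Genes were named by rule: all members, up to 4 per pathway list with the smallest p in KO against control, all measured relatives, and the 5 nearest patterns. Marker genes named in the text were chosen after their values were seen.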

Additional observations from a re-analysis of the deposited data

How the results depend on the processing

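No alternative gave a call among the 8 genes in DKO against KO or DKO against DKOhet (55 recomputed counts, all 0), and no difference of Rbpj-deleted from control, or of DKO from hetDKO, changed sign for any of the 8 or for their median. Of 111 recomputed medians, 97 moved by less than the pooled spread of 0.23 and 14 by more. With the authors' value table, and likewise with no background correction, the medians were 2.27 in KO, 2.07 in DKO and 2.18 in DKO against hetDKO. An offset of 50 gave 2.31 in DKO and 2.40 in DKO against hetDKO. Within beadchip 1 they were 2.85 in KO and 2.81 in DKO, and within beadchip 2 they were 2.26 in KO and 2.41 in DKO against hetDKO. Leaving out each array gave 2.33 to 3.0 in DKOhet, 2.50 to 2.75 in KO, 2.38 to 2.67 in DKO and 2.47 to 2.76 in DKO against hetDKO; the DKOhet extremes came without DKOhet replicate 1 and 2. The cause was not tested. Pathway gene counts within beadchip 2, with fewer arrays, were 3 in KO, 4 in DKOhet, 2 in DKO and 0 in DKO against hetDKO, and leaving out each array gave 20 to 25, 15 to 28, 24 to 29 and 19 to 26. Replicate numbers were not taken as pairs, since deviations of same-numbered arrays did not correlate above 0.1 in every pair (18 of 27 did). On one beadchip the median was 0.175 for the same number (16 of 23 above 0.1) and 0.0695 for different numbers (12 of 26). With a replicate block the medians were 2.63 in KO, 2.75 in DKOhet, 2.56 in DKO and 2.68 in DKO against hetDKO, and no member was called in DKO against KO or DKO against DKOhet. Over all probes, calls numbered 253 in KO, 456 in DKO and 439 in DKO against hetDKO within beadchip 1, and 95, 22 and 4 within beadchip 2 with 27 in DKOhet, against 1065, 1854, 1105 and 1211 over both. Leaving out each array gave 592 to 1150 in KO (lowest without KO replicate 3), 229 to 1746 in DKOhet (lowest without DKOhet replicate 1), 1038 to 1998 in DKO (lowest without DKO replicate 3) and 448 to 1444 in DKO against hetDKO (lowest without hetDKO replicate 1). The signal over background limits Car9, whose low values are bounds.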

Other observations

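Several of the 8 genes, Ddit4 among them, can also respond to the stress factor ATF4 or to p53, so 17 targets of these factors were measured, with a list drawn up when results of these data were known. In KO against control 5 passed limma's test as higher and 2 as lower, beside 3.61% and 3.97% of kept probes. In DKOhet 6 were higher (4.30% of kept probes were) and in DKO 5 (6.68%). In both, 0 were lower, beside 4.32% and 6.51% of kept probes. In hetDKO 0 passed, as did 0.00% of kept probes. Chac1, a stress-induced enzyme that degrades glutathione, rose by 4.15 ± 0.46 in KO (17.7-fold, adjusted p = 0.000136), 4.94 ± 0.52 in DKOhet (30.6-fold) and 4.45 ± 0.43 in DKO (21.9-fold), and differed by −0.02 ± 0.46 in hetDKO. Ddit3, which encodes the stress factor CHOP, rose by 1.78 ± 0.49 in KO, 1.98 ± 0.55 in DKOhet and 1.48 ± 0.45 in DKO (adjusted p = 0.0406, 0.04 and 0.0436). Vldlr rose by 2.43 ± 0.22 in KO, 3.11 ± 0.25 in DKOhet and 2.96 ± 0.21 in DKO, and Atf3 by 0.73 ± 0.18, 1.35 ± 0.20 and 1.0 ± 0.16. Asns, the asparagine synthetase, passed in KO (0.93 ± 0.27, adjusted p = 0.0479) and not in DKOhet or DKO (0.80 ± 0.30 and 0.69 ± 0.25, adjusted p = 0.113 and 0.0792). The 2 that fell in KO were Phgdh (−0.71 ± 0.20, adjusted p = 0.0459), of serine synthesis, and Trp53inp1 (−0.52 ± 0.13, adjusted p = 0.0281), a p53 target. The p53 targets Cdkn1a, Mdm2, Ccng1 and Sesn1 differed by 0.37 ± 0.18, 0.22 ± 0.15, −0.08 ± 0.17 and 0.03 ± 0.20 in KO. None of them passed in KO (adjusted p = 0.228, 0.397, 0.826 and 0.952) or DKO, and only Cdkn1a passed in DKOhet (0.74 ± 0.21). Trib3, Atf5, Sesn2, Psat1, Slc7a11 and Nupr1 did not pass in KO either, and of these only Sesn2 passed in DKOhet and DKO. The genes given with values here were chosen after their values were seen. In DKO against KO 0 of the 17 passed, beside 0.0142% of kept probes. The part of ATF4 or p53 in the signal of the 8 genes was not tested.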
